A study of Mus musculus with 8 samples.

Results

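The genes that encode the subunits of the proteasome, its regulatory caps, its activators and its assembly helpers were followed in mouse skin after topical enalapril maleate. Members were the genes whose name in the array files is Psma, Psmb, Psmc, Psmd, Psme, Psmf or Psmg followed by a number. The rule found 63 probes for 42 genes, and no probe carried a Psmg name. These were 42 of the 27758 genes and unnamed probes on the array and 42 of the 19097 that were tested. Enalapril maleate is a prodrug of an inhibitor of angiotensin-converting enzyme, which blood pressure medicine uses by mouth. The study applied it to the backs of hairless male SKH-1 mice, aged 19 weeks per the labels, whose dorsal skin had been exposed to UVB for 10 weeks. In the enalapril group, 4 mice received 1% enalapril maleate in 30% ethanol on the irradiated skin 5 times a week for 2 weeks, from 1 week after the last exposure. In the vehicle group, 4 mice received 30% ethanol alone on the same schedule, so irradiation and ethanol were common to both groups and no unirradiated skin was analysed here. The labels call the 4 samples of each group biological replicates.

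The proteasome degrades proteins that carry a ubiquitin chain. Its barrel-shaped core, the 20S particle, has rings of alpha subunits that gate the entrance and rings of beta subunits that hold the cutting sites, and the 19S cap recognises, unfolds and feeds in the substrate. In cells exposed to interferon, alternative catalytic subunits take the place of the constitutive ones and form the immunoproteasome, which shapes the peptides shown on MHC class I molecules. In skin the system disposes of proteins damaged by oxidation and ultraviolet light.

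Levels are log2 of the processed intensity minus the 75th percentile of the same array, and a log2 change is the mean of the 4 enalapril arrays minus that of the 4 vehicle arrays, with limma's standard error (SE). A gene was called changed at an adjusted p under 0.05 (limma, Benjamini-Hochberg over all tested genes). All 42 members were well above background on all 8 arrays. The brightest probe stood for the 16 genes with several probes.

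Most proteasome transcripts were measured a little lower in enalapril skin, and few passed the test. Of the 42 members, 4 fell and 0 rose. The share that fell was 9.52%, against 9.85% of all tested genes, and 4.33% of all tested genes rose, so that 14.2% of them passed in either direction. The members that fell were Psmb6, Psmb1 and Psmb4 of the core and Psmd9, an assembly chaperone of the cap. At an unadjusted p under 0.05, 15 members were lower (35.7%) and 0 were higher, against 21.7% of all tested genes lower and 10.3% higher. The change was below 0 for 34 members (81.0%), against 59.8% of all tested genes. All 4 enalapril arrays lay below all 4 vehicle arrays for 14 members (33.3%), against 15.4% of all tested genes. The reverse held for 0 members, against 6.6% of all tested genes, which makes 22% of all genes without overlap in either direction. The median change was -0.17 for the members and -0.08 for all tested genes, and single members ran between -0.61 for Psma8 and 0.20 for Psmb2. In bulk skin, fewer cells of a type and less RNA per cell cannot be told apart.

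**Figure D1:**
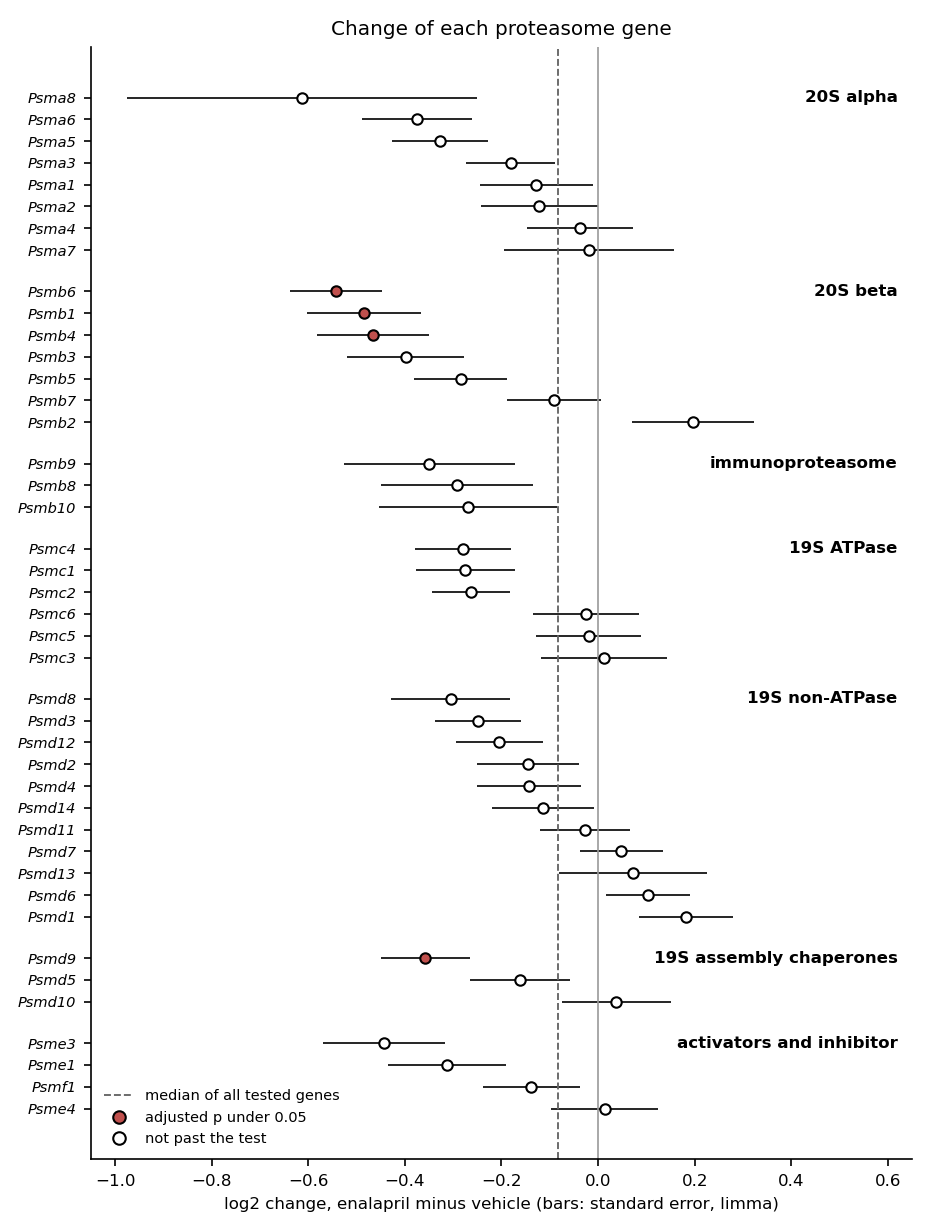
Log2 change of each of the 42 proteasome genes (horizontal axis, enalapril minus vehicle, bars are limma's standard errors, n = 4 arrays per group), grouped by role. Filled points mark the 4 genes with an adjusted p under 0.05, and the dashed line is the median of all tested genes at -0.08; 34 points lie left of 0.

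Brightness moved with the change on these arrays, so the members were set beside genes of equal brightness. When the tested genes were split into 10 classes by mean intensity, 28 of the 42 members fell into the brightest class of 1910 genes. In that class the median change was -0.26 for the members and -0.21 for all its genes. The share called lower there was 10.7% of the members, 3 genes, and 20.5% of all genes in the class. The share with no overlap between the groups and enalapril below was 39.3% of the members and 31.6% of the class. A change below 0 was found for 92.9% of the members there and 80.7% of all genes in the class. Over all 42 members, the change was more negative than the median of their own brightness class for 21 and less negative for 21, and the median difference from it was -0.01. Set beside their brightness class, then, the members as a whole differed little from other genes, while single genes stood well to either side. The change of Psmb6 minus its class median was -0.33, and that of Psmd1, which encodes a large scaffold of the cap, was 0.34.

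**Figure D2:**
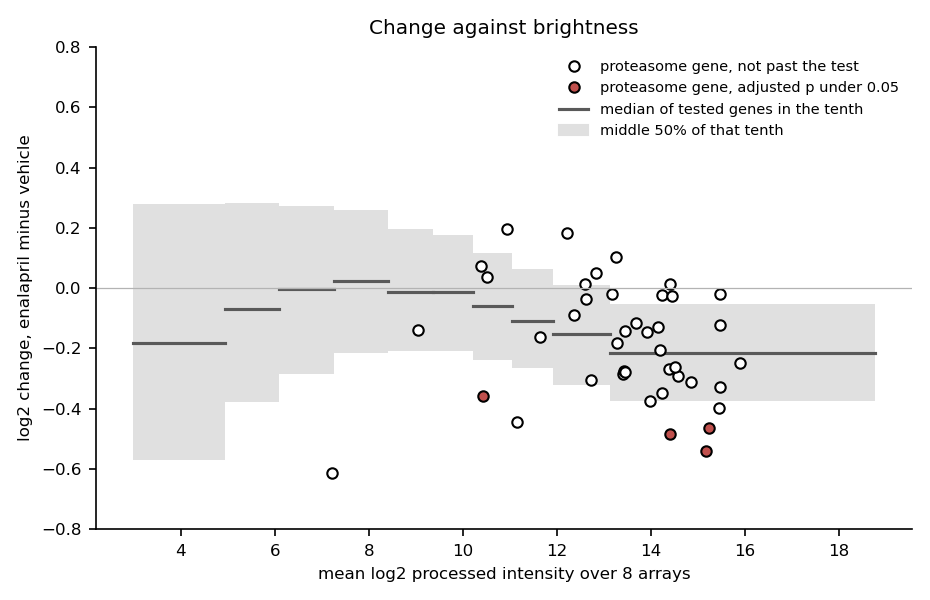
Log2 change (vertical axis, enalapril minus vehicle) against mean log2 processed intensity over the 8 arrays (horizontal axis). Points are the 42 proteasome genes, filled where the adjusted p was under 0.05, and grey bars and lines give the middle 50% and the median of all tested genes in each brightness class. The class medians rise from -0.18 in the dimmest class to 0.02 in class 4 and fall to -0.21 in the brightest. Psmb6, Psmb1 and Psmb4 lie under the grey bar of the brightest class, and so does Psmb3, which did not pass the test.

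The upstream sequences of 4 members are given because 3 of them passed the test (Psmb6, Psmb4, Psmd9) and Psmb9 shares its promoter with a gene of peptide transport. Each is the 250 bases before a transcript start in RefSeq on GRCm38.p6, the C57BL/6J assembly and not the SKH-1 genome, read 5′ to 3′ on the strand of the gene. Capitals mark matches to the antioxidant response element TGACNNNGC or to the NF-Y box CCAAT, searched on both strands. Psmb6 lies on chr11:70525107-70525356 (plus strand), Psmb4 on chr3:94886959-94887208 (minus), Psmd9 on chr5:123227940-123228189 (plus) and Psmb9 on chr17:34187331-34187580 (minus).
Psmb6: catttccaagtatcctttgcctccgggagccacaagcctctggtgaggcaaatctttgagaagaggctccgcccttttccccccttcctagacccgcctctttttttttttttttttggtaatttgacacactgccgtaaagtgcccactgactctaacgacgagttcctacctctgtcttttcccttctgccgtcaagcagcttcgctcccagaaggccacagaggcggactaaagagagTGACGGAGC
Psmb4: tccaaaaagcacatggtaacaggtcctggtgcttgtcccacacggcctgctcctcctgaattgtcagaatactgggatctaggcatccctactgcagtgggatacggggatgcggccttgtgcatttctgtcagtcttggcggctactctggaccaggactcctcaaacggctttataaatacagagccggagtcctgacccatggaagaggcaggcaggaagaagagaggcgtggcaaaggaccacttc
Psmd9: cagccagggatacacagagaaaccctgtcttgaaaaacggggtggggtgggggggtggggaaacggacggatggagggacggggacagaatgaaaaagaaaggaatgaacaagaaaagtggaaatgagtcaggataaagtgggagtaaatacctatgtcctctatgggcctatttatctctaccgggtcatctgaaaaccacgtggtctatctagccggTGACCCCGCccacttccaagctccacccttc
Psmb9: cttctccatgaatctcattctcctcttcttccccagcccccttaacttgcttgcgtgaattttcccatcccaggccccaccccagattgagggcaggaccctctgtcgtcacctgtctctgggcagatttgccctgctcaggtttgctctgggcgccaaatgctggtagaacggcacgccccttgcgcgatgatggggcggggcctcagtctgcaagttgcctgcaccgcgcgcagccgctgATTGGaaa
Psmb6 held TGACGGAGC from -9 to -1 and Psmd9 held TGACCCCGC from -31 to -23, counted back from the transcript start. Psmb9 held ATTGG, the reverse complement of the NF-Y box, from -8 to -4, and Psmb4 held none of the motifs. RefSeq's table had a promoter window for 35 of the 42 members, each with 250 bases before and 50 after the start; Psma8, Psmb1, Psmb2, Psmb7, Psmc3, Psmd3 and Psmd7 had no entry. The antioxidant response element was found for 6 of the 35 members (17.1%: Psmb5, Psmb6, Psmc6, Psmd9, Psmd12 and Psme4), against 14.0% of 27025 genes in the table. The NF-Y box was found for 13 members (37.1%), against 41.1% of genes, and the interferon motif TTCNNNGAA, known as GAS, for 2 members (5.71%: Psmb8 and Psmd2), against 9.55%. The shares of the members were thus close to those of promoters at large, and the motifs overlap with no other in the sequences shown.

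Among the alpha subunits, which form the outer rings of the core, 0 of 8 passed the test in either direction (9.85% of all tested genes were lower and 4.33% higher). At an unadjusted p under 0.05 limma gave 2 of 8, both lower, which is close to the 21.7% of all tested genes. All 8 had a change below 0, with a median of -0.15 and a range of -0.61 to -0.02. Psma6 and Psma5, 2 constitutive ring subunits, were the nearest to a call. Psma6 was at 3.61, 3.98, 3.73 and 3.86 on enalapril arrays 1 to 4, against 4.09, 4.14, 4.09 and 4.36 on vehicle arrays 1 to 4. The groups did not overlap, and the change was -0.37 ± 0.11 (SE, n = 4 each; limma, adjusted p = 0.0604). Psma5 was at 5.31, 5.41, 5.16 and 5.32 in enalapril skin, against 5.68, 5.67, 5.45 and 5.69 in vehicle skin, again without overlap, with a change of -0.33 ± 0.10 (SE; limma, adjusted p = 0.0613). Psma8, an alpha subunit known from germ cells of the testis, had the lowest change of all members, -0.61 ± 0.36 (SE; limma, adjusted p = 0.277). Its dim probe was at -2.53, -2.87, -4.32 and -2.65 in enalapril skin, against -2.35, -2.48, -2.74 and -2.34 in vehicle skin. Enalapril array 3 was far below the other arrays, the groups overlapped, and without that array the change was -0.20 (limma, adjusted p = 0.394). For Psma4 the brighter probe gave -0.04 and the other probe 0.04, so its 2 probes differed in sign.

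The beta subunits of the constitutive core held 3 of the 4 calls, 3 of 7 genes, and 0 of 7 rose; 9.85% of all tested genes were lower, and 20.5% of the brightest class, which holds Psmb1, Psmb3, Psmb4, Psmb5 and Psmb6. Their median change was -0.40, and 6 of the 7 were below 0. Psmb6 carries the caspase-like cutting site. Its levels were 4.81, 4.99, 4.76 and 4.97 in enalapril skin, against 5.52, 5.41, 5.34 and 5.43 in vehicle skin. Every enalapril array lay below every vehicle array, and the gap between the groups was wider than the range inside either. Psmb6 fell by 0.54 on the log2 scale, which is 1.46-fold lower, with an SE of 0.10 (n = 4 each; limma, adjusted p = 0.0142). It kept its call in each of the 8 fits that left out 1 array, with adjusted p (limma) of at most 0.0458, and it fell in enalapril skin under quantile normalization (-0.37, adjusted p = 0.0368) and cyclic loess (-0.31, adjusted p = 0.0439). The call ended under E1A centring (-0.61, adjusted p = 0.138), normexp (-0.76, adjusted p = 0.301) and the block on the mouse number (-0.54, adjusted p = 0.0535), with changes at least as large. That normexp fit called 0 of all tested genes. After repair of the background of 4 spots, normexp kept the Psmb6 call (-0.59; limma, adjusted p = 0.0153).

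Psmb1 and Psmb4 encode beta subunits without a cutting site of their own. Psmb1 was at 4.02, 4.35, 4.14 and 4.14 in enalapril skin, against 4.69, 4.67, 4.41 and 4.82 in vehicle skin. It fell by 0.48, or 1.40-fold, with an SE of 0.12 (limma, adjusted p = 0.0323). Psmb4 was at 4.99, 4.93, 4.79 and 5.26 in enalapril skin, against 5.48, 5.51, 5.34 and 5.50 in vehicle skin, and it fell by 0.47, or 1.38-fold, with an SE of 0.12 (limma, adjusted p = 0.0345). Neither gene's groups overlapped, although vehicle array 3 came close to enalapril array 2 for Psmb1 and to enalapril array 4 for Psmb4. Both calls were lost in 6 of the 8 fits without 1 array, all but those without enalapril 4 and without vehicle 3, with adjusted p (limma) of up to 0.0835 for Psmb1 and 0.0915 for Psmb4. Under quantile normalization the changes were -0.31 for Psmb1 (limma, adjusted p = 0.101) and -0.28 for Psmb4 (limma, adjusted p = 0.121).

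The other beta subunits did not pass the test. Psmb3, another subunit without a cutting site, was at 5.07, 5.17, 5.17 and 5.53 in enalapril skin, against 5.74, 5.64, 5.49 and 5.67 in vehicle skin, and differed by -0.40 ± 0.12 (SE; limma, adjusted p = 0.0606); enalapril 4 lay above vehicle 3. Its other probe gave -0.24. Psmb5, which carries the chymotrypsin-like site, was at 3.22, 3.24, 3.14 and 3.42 in enalapril skin, against 3.61, 3.57, 3.53 and 3.45 in vehicle skin. The groups touched closely without overlapping, and the change was -0.28 ± 0.10 (SE; limma, adjusted p = 0.0794). Psmb7, which carries the trypsin-like site, was at 2.23, 2.30, 2.23 and 2.44 in enalapril skin, against 2.40, 2.30, 2.55 and 2.33 in vehicle skin, with overlapping groups and a change of -0.09 ± 0.10 (SE; limma, adjusted p = 0.557). That change turned to 0.04 for Psmb7 under quantile normalization and 0.03 under cyclic loess. Psmb2, a subunit without a cutting site, had the highest change of all 42 members at 0.20 ± 0.13 (SE; limma, adjusted p = 0.315), and its groups overlapped. The catalytic subunits of the constitutive core thus had changes of -0.54, -0.28 and -0.09 for the caspase-like, chymotrypsin-like and trypsin-like sites, of which only the first passed.

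**Figure D3:**
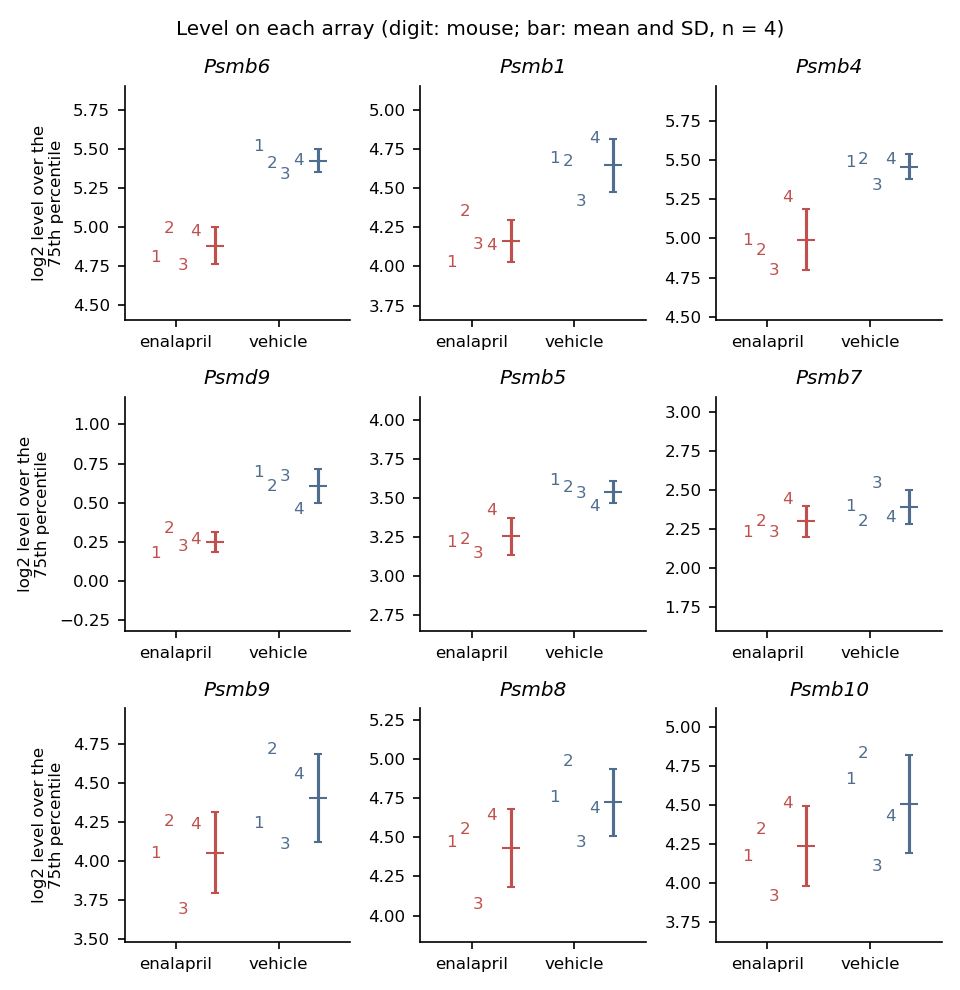
Log2 level over the 75th percentile of the array (vertical axes, each spanning 1.5 log2 units) on the 4 enalapril arrays, left, and the 4 vehicle arrays, right. Digits are mice, and bars give the mean and SD (n = 4). The top row and Psmd9 show the 4 genes that fell, whose groups do not overlap, and the bottom row shows the immunoproteasome genes, whose groups overlap.

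None of the 3 immunoproteasome genes passed the test, and in all 3 the groups overlapped; at an unadjusted p under 0.05 limma also gave 0 of 3. Psmb9, which replaces Psmb6 in the immunoproteasome, was at 4.05, 4.25, 3.69 and 4.23 in enalapril skin, against 4.24, 4.72, 4.11 and 4.56 in vehicle skin. Its change was -0.35 ± 0.18 (SE; limma, adjusted p = 0.209). Psmb8, which replaces Psmb5, was at 4.47, 4.55, 4.07 and 4.64 in enalapril skin, against 4.76, 4.99, 4.47 and 4.68 in vehicle skin, a change of -0.29 ± 0.16 (SE; limma, adjusted p = 0.234). Psmb10, which replaces Psmb7, was at 4.17, 4.34, 3.92 and 4.51 in enalapril skin, against 4.66, 4.83, 4.11 and 4.43 in vehicle skin, a change of -0.27 ± 0.18 (SE; limma, adjusted p = 0.346). Array 3 was the lowest of its group for all 3 genes in both groups, and vehicle array 2 was the highest of its group. The spread inside the groups, with SDs of 0.21 to 0.31, was close in size to the changes of these genes.

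Each immunoproteasome subunit was also set against the subunit it replaces on the same array, which cancels any scaling of a whole array. Psmb9 minus Psmb6 was -0.76, -0.74, -1.07 and -0.74 in enalapril skin, against -1.28, -0.69, -1.24 and -0.87 in vehicle skin. The groups overlapped and differed by 0.19 (exact permutation test over the 70 assignments of arrays, two-sided p = 0.257, adjusted over 3 pairs 0.643). Psmb10 minus Psmb7 averaged 1.93 ± 0.18 in enalapril skin and 2.11 ± 0.41 in vehicle skin (SD, n = 4 each), a difference of -0.18 (exact permutation p = 0.429, adjusted 0.643). Psmb8 minus Psmb5 averaged 1.18 ± 0.17 in enalapril skin and 1.18 ± 0.20 in vehicle skin (SD, n = 4 each), a difference of -0.01 (exact permutation p = 0.943, adjusted 0.943). The smallest p this design allows is 0.0286, and the p-values observed lay well above it. Single arrays moved the differences. Psmb10 minus Psmb7 ran from -0.36 without vehicle 3 (exact permutation p = 0.0286, adjusted 0.0857) to -0.04 without vehicle 2, and Psmb9 minus Psmb6 from 0.11 without vehicle 1 to 0.30 without vehicle 2. Leaving out 1 array leaves fewer assignments than 70, and the p without vehicle 3 is the smallest that this smaller test can give. A p that misses the threshold does not show that the subunits moved alike.

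**Figure D4:**
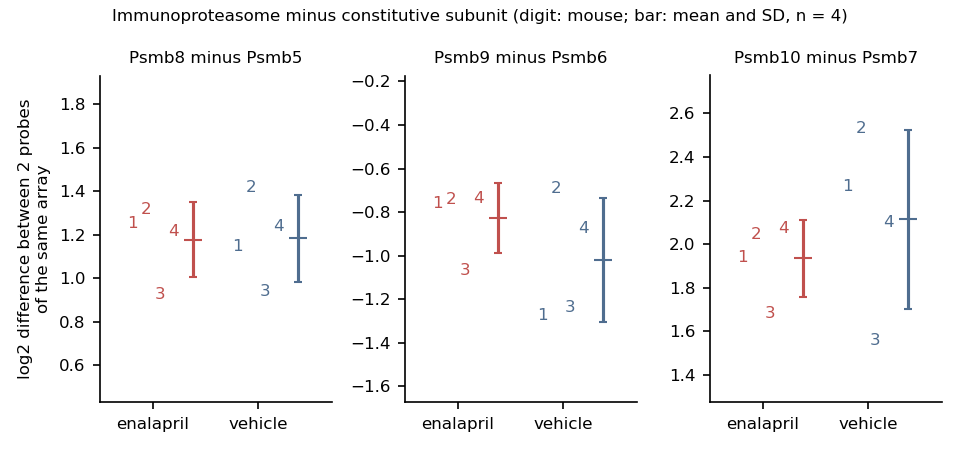
Within-array log2 difference between each immunoproteasome subunit and the constitutive subunit it replaces (vertical axes, each spanning 1.5 log2 units), for 4 enalapril arrays, left, and 4 vehicle arrays, right. Digits are mice and bars are the mean and SD (n = 4); the groups overlap in all 3 pairs.

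In the 19S cap, the ATPases that unfold the substrate had 0 of 6 calls and a median change of -0.14; at an unadjusted p under 0.05 limma gave 3, all lower (21.7% of all tested genes). Psmc4 differed by -0.28 ± 0.10 (SE; limma, adjusted p = 0.0925), Psmc1 by -0.28 ± 0.10 (SE; limma, adjusted p = 0.105) and Psmc2 by -0.26 ± 0.08 (SE; limma, adjusted p = 0.0644). Psmc2 was at 4.33, 4.44, 4.33 and 4.41 in enalapril skin, against 4.66, 4.68, 4.63 and 4.58 in vehicle skin, so its groups were narrow and did not overlap. The other 3 ATPase genes, Psmc3, Psmc5 and Psmc6, differed by -0.02 to 0.01. For Psmc4 the other probe gave 0.03, opposite in sign to the brighter one.

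Among the 11 genes of the non-ATPase subunits, which build the lid and the ubiquitin-binding base of the cap, 0 passed the test, 7 had a change below 0 and the median was -0.11; at an unadjusted p under 0.05 limma gave 2 of 11, both lower (21.7% of all tested genes). Psmd3, a subunit of the lid, was at 5.72, 5.69, 5.82 and 5.81 in enalapril skin, against 6.03, 6.02, 5.88 and 6.10 in vehicle skin. Its groups did not overlap, and the change was -0.25 ± 0.09 (SE; limma, adjusted p = 0.0972), which became 0.02 under quantile normalization and 0.01 under cyclic loess. Psmd12, another lid subunit, differed by -0.20 ± 0.09 (SE; limma, adjusted p = 0.157), and its 2 other probes gave 0.05 and 0.09. Psmd2, the scaffold of the base, gave -0.14 with 1 probe and 0.27 with the other. Psmd7, the partner of the deubiquitinase of the lid, gave 0.05 with its brightest probe and -0.20 and 0.21 with the others. Probes of a gene thus differed in sign for 5 of the 15 members with several tested probes: Psma4, Psmc4, Psmd2, Psmd7 and Psmd12. The remaining non-ATPase genes, among them Psmd14, the deubiquitinase of the lid, and Psmd4, a ubiquitin receptor, lay between -0.31 and 0.18.

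The assembly chaperones Psmd9, Psmd5 and Psmd10 help the ATPase ring to form and are absent from the finished cap. Psmd9 was at 0.18, 0.33, 0.22 and 0.26 in enalapril skin, against 0.69, 0.60, 0.67 and 0.45 in vehicle skin, without overlap. It fell by 0.36, or 1.28-fold, with an SE of 0.09 (limma, adjusted p = 0.0378). Its second, dimmer probe gave -0.06 (limma over every probe, adjusted p = 0.744), and the mean of both probes -0.21 (limma, adjusted p = 0.160), so the call rests on 1 probe. It was also lost in 7 of the 8 fits without 1 array, all but that without enalapril 4, with adjusted p (limma) up to 0.103. Psmd5 and Psmd10 differed by -0.16 and 0.04, and their groups overlapped.

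The activators dock on the core in place of the cap. Of their 3 genes and Psmf1, which encodes a regulator first described as an inhibitor, 0 of 4 passed the test, with a median change of -0.23; at an unadjusted p under 0.05 limma gave 2, both lower (21.7% of all tested genes). Psme3, which encodes the nuclear activator PA28-gamma, was at 0.71, 0.84, 1.03 and 1.12 in enalapril skin, against 1.51, 1.21, 1.50 and 1.25 in vehicle skin. The groups did not overlap, and its change of -0.44 ± 0.13 (SE; limma, adjusted p = 0.0502) lay just outside the threshold. Psme1, the alpha subunit of the interferon-induced activator PA28, was at 4.54, 4.74, 4.52 and 4.92 in enalapril skin, against 4.90, 5.09, 4.86 and 5.12 in vehicle skin, and differed by -0.31 ± 0.12 (SE; limma, adjusted p = 0.118) with overlapping groups. The brightest probe of Psme4, which encodes the activator PA200, gave 0.01, and its 3 other probes gave 0.24, 0.31 and 1.12, none past the test. The probe that gave 1.12 was dim, with a mean log2 intensity of 4.35, against 14.4 for the brightest. It was well above background on 5 of the 8 arrays. Psme2 had no probe of that name.

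These counts changed when an array was left out, which also leaves fewer arrays to test. Enalapril array 3 held the lowest level of its group for 28 of the 42 members and enalapril array 4 the highest for 24. The mean level of the 42 members was 3.16, 3.22, 3.05 and 3.33 on the enalapril arrays, against 3.41, 3.40, 3.32 and 3.37 on the vehicle arrays. Enalapril 1 to 3 thus lay below every vehicle array, and enalapril 4 above vehicle 3. Without enalapril 4, 12 members were lower and 17.0% of all tested genes were. Without vehicle 3, 4 members (9.52%) and 7.53% of all tested genes were lower. Without any other single array, 1 member was lower, Psmb6, and between 2.87% and 3.45% of all tested genes.

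The share of members called lower changed with the processing of the arrays, and so did that of all genes. It was 4.76% under quantile normalization (5.82% of all genes), 2.38% under cyclic loess (6.70%), 23.8% with an intensity trend and robust estimation (11.4%) and 31.0% with array weights (21.0%). The members' share was above that of all genes in 8 of 25 settings, and 0 members rose in any of them. Relative to all tested genes, the median of the members was -0.09, and it was 0.01 under quantile normalization and also 0.01 under cyclic loess, both of which act on the dependence of the change on brightness.

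**Figure D5:**
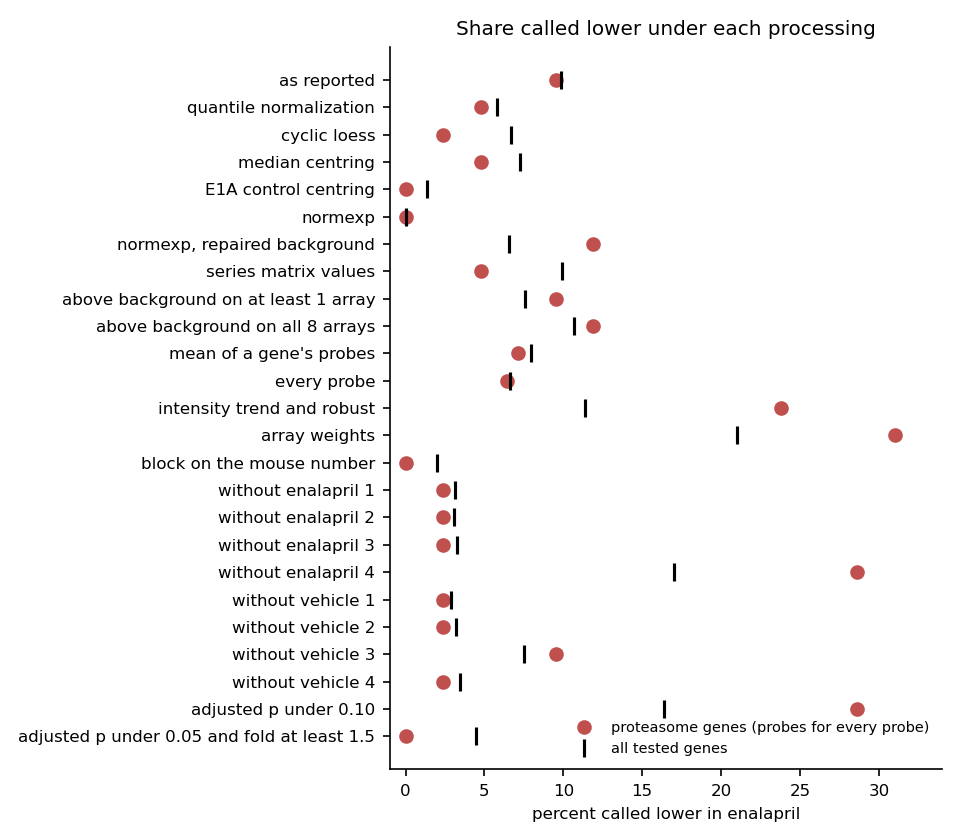
Percent called lower in enalapril skin (horizontal axis) among the proteasome genes, points, and among all tested genes, vertical ticks, for the reported processing and the 24 others, listed down the page. The points run from 0 to 31.0%, the highest being with array weights, where 21.0% of all genes were lower.

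No gene of the 4 lists around the proteasome was called lower. Of 15 tested partner genes (assembly, shuttle and docking factors) 1 rose and 0 fell, of 10 regulators of proteasome transcription 1 rose and 0 fell, of 9 genes of ubiquitin supply and handling 1 rose and 0 fell, and of 15 genes of antigen presentation and interferon response 1 rose and 0 fell; their median changes were -0.03, 0.0030, -0.02 and 0.03. At an unadjusted p under 0.05 limma gave 3 partners lower and 3 higher, 0 regulators lower and 1 higher, 1 ubiquitin gene lower and 1 higher, and 0 presentation genes lower and 2 higher. Of all tested genes, 9.85% were called lower and 4.33% higher, and 21.7% were lower and 10.3% higher at the unadjusted p. Pomp, the chaperone that matures the core, differed by -0.32 ± 0.10 (SE; limma, adjusted p = 0.0690), with enalapril arrays below vehicle arrays throughout. Adrm1, a ubiquitin receptor of the cap, was at 1.61, 1.50, 1.63 and 1.90 in enalapril skin, against 1.45, 1.48, 1.33 and 1.46 in vehicle skin, a change of 0.23 ± 0.11 (SE; limma, adjusted p = 0.184). The cap's deubiquitinases Uchl5 and Usp14 differed by -0.15 and -0.07 and did not pass. Ubqln4, a shuttle that carries ubiquitinated proteins, rose by 0.47 ± 0.13 (SE; limma, adjusted p = 0.0434).

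Nfe2l1, the transcription factor that restores proteasome genes when the proteasome is inhibited, differed by -0.08 ± 0.10 (SE; limma, adjusted p = 0.632), and by 0.12 under quantile normalization. Nfe2l2, the factor of the antioxidant response, differed by -0.18 ± 0.09 (SE; limma, adjusted p = 0.207) with its brightest probe, with the enalapril arrays all below the vehicle arrays. The other Nfe2l2 probes gave -0.17, -0.65 and 0.89, so its probes differed in sign. The mean of its probes gave -0.03 (limma, adjusted p = 0.872), and quantile normalization -0.0068 for the brightest probe. Nfe2l3, a relative of Nfe2l1, was at -0.47, -0.46, -0.58 and -0.62 in enalapril skin, against -0.87, -1.27, -0.91 and -1.04 in vehicle skin. Its groups did not overlap, and it rose by 0.49 ± 0.11 (SE; limma, adjusted p = 0.0264). Its other probe gave 0.03 (limma over every probe, adjusted p = 0.910) and the mean of both 0.26 (limma, adjusted p = 0.151), so the call rests on 1 probe. Uba6, an enzyme that activates ubiquitin, rose by 0.49 ± 0.13 (SE; limma, adjusted p = 0.0452) with its brightest probe. Its 3 other probes gave 0.74, 0.15 and -0.07, and the mean of all 4 gave 0.33 (limma, adjusted p = 0.157), so this call too depends on the probe. The calls also changed when single arrays were left out. Nfe2l3 lost its call without enalapril 1, 2 or 3 or vehicle 2 or 4 (limma, adjusted p up to 0.0739). Among these fits, Ubqln4 kept its call only without enalapril 4 or vehicle 3 (otherwise up to 0.107), and Uba6 only without enalapril 4 or vehicle 4 (otherwise up to 0.108).

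Tap1, the peptide transporter whose promoter window shares 275 of 300 bases with that of Psmb9 on the opposite strand, was at 1.24, 1.55, 1.33 and 1.97 in enalapril skin, against 1.02, 1.24, 1.05 and 0.87 in vehicle skin. Its change was 0.48 ± 0.17 (SE; limma, adjusted p = 0.0907), opposite in sign to that of Psmb9, and neither passed the test. Ifi47, an interferon-induced GTPase, rose by 1.32 ± 0.36 (SE; limma, adjusted p = 0.0447) although its groups overlapped, and of the fits without 1 array it kept the call only without enalapril 4 or vehicle 1 (limma, adjusted p otherwise up to 0.106).

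Current names add 4 genes that the file names missed. Psmg3, an assembly chaperone of the core, differed by -0.37 ± 0.11 (SE; limma, adjusted p = 0.0556), Psmg1 by 0.25 and Psmg2 by -0.06, none past the test. The thymus subunit Psmb11 was well above background on 1 array and was not tested. These genes were chosen after their values were seen and are not counted among the members.

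By brightest probe, 0 of 8 keratinocyte, 0 of 5 fibroblast and 0 of 13 leukocyte markers passed the test in either direction. At an unadjusted p under 0.05 limma gave 1 keratinocyte marker higher, 0 fibroblast markers, and 1 leukocyte marker lower and 1 higher. Of all tested genes 21.7% were lower and 10.3% higher at that p. In the fit over every probe, a dimmer probe was called higher for Trp63 (0.77; limma, adjusted p = 0.0437), Col1a1 (0.89; limma, adjusted p = 0.0365) and Cd4 (0.94; limma, adjusted p = 0.0234). The brightest probes of Trp63, Col1a1 and Cd4 gave 0.35, 0.04 and -0.20. Of 9 skeletal muscle markers 4 fell, with a mean level of 4.55 to 4.60 on the enalapril arrays and 4.68 to 5.63 on the vehicle arrays. Of 8 adipocyte markers 5 fell, with a mean of 2.03 to 2.51 on the enalapril arrays and 2.59 to 2.75 on the vehicle arrays. Among all tested genes 9.85% fell and 4.33% rose. The share that fell was 20.5% in the brightest class and 14.5% in the next, where most of these muscle and adipocyte markers lie. Every listed marker was well above background on at least 4 arrays. The median local background was 48 to 52 on the enalapril arrays and 57 to 66 on the vehicle arrays. Enalapril arrays shared a slide and its scan, vehicle arrays shared another, so slide and group cannot be told apart. On both slides the position of an array equalled its mouse number, so position and mouse number cannot be told apart either. The part of these differences in the proteasome values was not tested.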

How the data were processed

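RNA from 8 mice, 4 per group, was hybridised to 1-colour (Cy3) Agilent arrays of 45018 spots, of which 43379 were not controls. The deposited scanner files hold linear spot intensity. Per the file headers it was background-subtracted and detrended by Agilent Feature Extraction 9.1.3.1 and not scaled between arrays (version 9.1 per the submitters' processing notes). The deposited 0 or 1 flags of that software are other values and served as filters. In the deposited series matrix, the log2 values equalled log2 of the same processed intensity without centring.

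Outlier-flagged spots were removed, which left out 47 of 41174 probes, and spots of a probe were averaged. Probes were renamed through RefSeq's GRCm38.p6 names (22951 by accession, 6659 by symbol, 3096 by synonym; 2024 kept the file's name and 6444 stayed unnamed), and the members kept the file's names. From log2 intensity, the 75th percentile of the array's non-control spots was subtracted. Genes were tested where the brightest probe passed the background flag on 4 or more of 8 arrays, with limma 3.58.1 (lmFit, eBayes, two-sided, Benjamini-Hochberg), run under R 4.3.3; files were read with version 1.17.8 of data.table. No member probe was saturated. The 75th percentile lay between 821.5 and 1540, and 67.1% to 72.7% of spots were above background; the number of arrays limits the precision. The scripts were tested on simulated data.

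The members and lists were chosen with earlier results of these data known. Named were, per class, the members past the test or the one with the smallest p, Psmb5 to Psmb10, Psme1, Psme2, the highest and lowest change, members whose probes differed in sign or call, up to 4 genes per list, and Nfe2l1, Nfe2l2, Pomp, Adrm1, Usp14, Uchl5 and Tap1; 1 further gene of the rule is not reported here. Others were named after their values were seen: Psma5, Psmb3, Psmc1, Psmd1, Psmd3 and Psmd5 among the members, and the genes of the closing section. The marker lists held the usual defining genes of keratinocytes, leukocytes, skeletal muscle, adipocytes and fibroblasts. Paaf1 and Nlrc5 of the lists had no probe of that name.

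The alternatives were other scalings and background corrections, the series matrix values, other filters and probe rules, other variance models, a block on the mouse number, each array left out in turn, and other thresholds. No block on slide or scan was possible, since neither held both groups.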

Additional observations from a re-analysis of the deposited data

Results flagged for a closer look

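Of 90 groups of 4 arrays examined for the members and pairs, 9 held 1 array far from the other 3, its gap to the nearest taking up most of the range of the group, and chance gives about 5% of groups. The enalapril arrays gave 5 of them. Psma4 was at 2.37 on enalapril 3, against 2.66 to 2.68 on the other enalapril arrays. Psmc5, an ATPase of the cap, was at 3.03 on enalapril 3, against 3.19 to 3.21 on the others. Psmd1 was at 2.32 on enalapril 1, against 2.29 on the others, a small gap in a group that otherwise hardly varied. Psmd8, a lid subunit, was at 2.24 on enalapril 1, against 2.64 to 2.72 on the others. Psmb9 minus Psmb6 was -1.07 on enalapril 3, against -0.76 to -0.74 on the others.

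The vehicle arrays gave 4, all on vehicle 3. There Psma5 was at 5.45, against 5.67 to 5.70 on the other vehicle arrays. Psmb4 was at 5.34, against 5.48 to 5.51. Psmc1 was at 3.62, against 3.52 to 3.53, and so higher than the others. Psmc5 was at 2.93, against 3.24 to 3.26.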

How the results depend on the processing

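The number of members lower was 4. It was 2 under quantile normalization, 1 under cyclic loess, 2 under median centring, 0 under E1A centring, 0 with normexp, 2 with the series matrix values, 10 with an intensity trend and robust estimation, 13 with array weights, 12 at an adjusted p under 0.10 and 0 with a fold of at least 1.5 as well. All genes changed numbered 2707, and 382 under E1A centring, 0 with normexp, 5937 with array weights, 4537 at 0.10 and 1360 with the fold. After repair of the background of 4 spots, normexp gave 5 members lower (Psma6, Psmb1, Psmb3, Psmb4 and Psmb6) and 1836 genes changed. Without 1 array there were 1 to 12 members lower and 844 to 4942 genes changed, the highest without enalapril 4. With the mouse number as a replicate block there were 0 members lower and 610 genes changed. The mouse number is also the position of the array on its slide, so this is a block on position too. Deviations from the group mean on same-numbered arrays correlated at -0.16, 0.05, 0.15 and -0.02. Values this weak show no pairing of the mice by number and cannot exclude one. Calls higher were 30.5% of all calls, and 41.7% under quantile normalization and 5.16% with the uncentred series matrix.

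The proteasome median change minus median of all tested genes was -0.09, and 0.0098 under quantile normalization, 0.0104 under cyclic loess, -0.48 with normexp and -0.21 with normexp after repair of 4 spots; without 1 array it was -0.13 to -0.07. The median of all genes was -0.08, against 0.14 with normexp and -0.45 with the series matrix values. The Psmb8 change minus Psmb5 change was 0.0411 under cyclic loess, 0.0592 with normexp, 0.0678 with the repair and 0.0329 after averaging the probes of a gene, and -0.0889 to 0.0767 without 1 array; Psmb9 minus Psmb6 was 0.107 to 0.301 and Psmb10 minus Psmb7 -0.364 to -0.0406 without 1 array. Single genes turned sign under quantile normalization (Psma4 0.0969, Psmb7 0.0357, Psmd2 0.0389, Psmd3 0.0152, Nfe2l1 0.121), cyclic loess (Psma4 0.0914, Psmb7 0.0263, Psmd2 0.0347, Psmd3 0.0116, Nfe2l1 0.122), E1A centring (Psmd7 -0.0216), normexp (Psma8 0.40, Psmd7 -0.0650), the series matrix values (Psmb2 -0.17, Psmd7 -0.32, Adrm1 -0.14) and averaged probes (Psma4 0.0036, Psmd2 0.0605), and Psma4 was -0.0793 to 0.0392 without 1 array. After the repair, normexp gave -0.15 for Psma8 and 0.09 for Psmd7, so neither turned sign. The causes were not tested. Psmb6 lost its call under E1A centring, normexp without the repair and the block, and for size under the fold rule.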
